A study of Rattus norvegicus with 6 samples.

Results

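The genes of the Wnt pathway's outer parts were examined in crushed and intact rat sciatic nerves: the Wnt ligands, their Frizzled receptors, the co-receptors and the proteins that tune the signal. Members were chosen by gene name, with earlier results of these data known. The rule took every gene named Wnt, Fzd, Sfrp or Dkk with a number, together with Lrp5, Lrp6, Axin2, Ctnnb1, Ror1, Ror2, Ryk, Frzb and Wif1. This gave 46 of the 30957 genes of the table, with 45 names, since Dkk1 has 2 entries. They comprised 19 Wnt ligands, 9 Frizzled receptors, 5 co-receptors, 11 entries for secreted inhibitors, and the intracellular genes Ctnnb1 and Axin2. Axin1 and Fzd10 were not analysed here.

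Wnt proteins are secreted, lipid-modified signals that bind Frizzled receptors on the cell surface. In the canonical branch, Wnt binding to Frizzled and to the co-receptors Lrp5 or Lrp6 stops the breakdown of β-catenin, the product of Ctnnb1, which then enters the nucleus and acts with TCF/LEF factors on genes such as Axin2. Other branches run through the receptors Ror1, Ror2 and Ryk, through planar cell polarity proteins or through calcium. Sfrp proteins, Frzb and Wif1 bind Wnts outside the cell, and some Dkk proteins, such as Dkk1, block the co-receptors. In peripheral nerve, Wnt signaling is known for roles in Schwann cell development, myelination and axon growth.

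RNA was sequenced from 6 sciatic nerves of Sprague-Dawley rats, 3 crushed (T) and 3 intact nerves of the opposite side (C). No group carried a transgene or a drug. The methods describe adult males and the proximal stumps of the crushed nerves at 4 days postinjury (dpi), although the labels name no time point, and they place the crush on the left where the series' design text places it on the right. Intact nerves therefore came from operated animals, and no unoperated rat is among the samples. The number of reads counted on genes lay between 24844371 and 27139360 per nerve, so that 3 counts, taken as the smallest level distinguishable from 0, corresponded to 0.110 to 0.121 CPM (each count divided by its nerve's library size, scaled with TMM factors). This floor covers counting error only. Where 3 values are given for a group, they are those of nerves 1, 2 and 3 in that order.

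The labelled tissue was compared with markers of the cells a nerve holds. Of the 13 Schwann cell markers in the table, 6 had at most 3 counts in any nerve, among them the defining genes Sox10, Mbp and S100b, and 6 were high enough to test. Cnp (1086 to 1473 counts per nerve), Pmp22 (821 to 968) and Prx (590 to 690) were the highest, and the list's summed FPKM (the authors' counts per kilobase of gene, scaled to library size) was 37.5 to 38.2 in intact and 39.1 to 41.0 in crushed nerves. Of the 10 macrophage and leukocyte markers, 5 had at most 3 counts, including Ptprc with 0 in all nerves, while Cd68 had 29 to 52 and Csf1r 18 to 29 counts, and the list's summed FPKM was 1.11 to 1.84 in intact and 1.44 to 2.01 in crushed nerves. The 7 genes of cycling cells had a summed FPKM of 685 to 696 in intact and 681 to 698 in crushed nerves. Of 10 fibroblast markers 4 were at 0 throughout (Col1a2, Dcn, Lum and Postn). The list's summed FPKM was 227 to 244 in intact and 172 to 185 in crushed nerves, without overlap. Most of this sum was Fn1 and Thy1. Fn1 had 126 to 139 FPKM in intact and 87.0 to 89.5 in crushed nerves, Thy1 89.4 to 95.7 and 73.5 to 84.9. Of the 6 fibroblast markers tested, 4 fell (Fn1, Col1a1, Pdgfrb and Col3a1). The libraries are called nerves here after their labels, and whether they hold the cells of whole nerve tissue was not tested, so every level and difference below is that of RNA with these marker levels. In bulk RNA, fewer cells of a type and less RNA per cell cannot be told apart.

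To ask whether the Wnt genes differed between crushed and intact nerves, counts of all 12393 genes that passed an expression filter were compared in one model with edgeR's quasi-likelihood test. Of the 46 members, 20 passed the filter: 5 ligands, 7 Frizzled receptors, 4 co-receptors, 2 secreted inhibitors, Ctnnb1 and Axin2. Another 18 had 0 counts in all 6 nerves, and 8 had a few counts but were too low to test.

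At the study's limits, which ask for a log2 fold change beyond 1 in either direction with a p (read here as unadjusted) under 0.001, 0 of the 20 members were called, against 0.282% of all genes tested. DESeq2 and limma also called 0. The largest estimate was 0.43 on the log2 scale, for the low-count Wnt6, and for 19 of the 20 members the 95% interval of the log2 fold change lay wholly between -1 and 1. At a Benjamini-Hochberg adjusted p under 0.05, with no limit on the fold change, 1 member was lower, the ligand Wnt7b, against 1.65% of all genes, and 0 were higher, against 1.47%. With an unadjusted p under 0.05, 1 member was higher (Ctnnb1), against 6.71% of all genes, and 2 were lower (Wnt7b and Ryk), against 9.5%. With 20 genes, these counts were close to the shares over all genes.

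The direction was downward in 13 of the 20 members and upward in 7. Their median log2 fold change was -0.08, against -0.0017 over all genes tested. The crushed nerves all lay above the intact nerves in 1 member, Ctnnb1, against 10.8% of all genes. They all lay below them in 3 members, Wnt7b, Wnt5a and Ryk, against 12.2% of all genes.

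**Figure D1:**
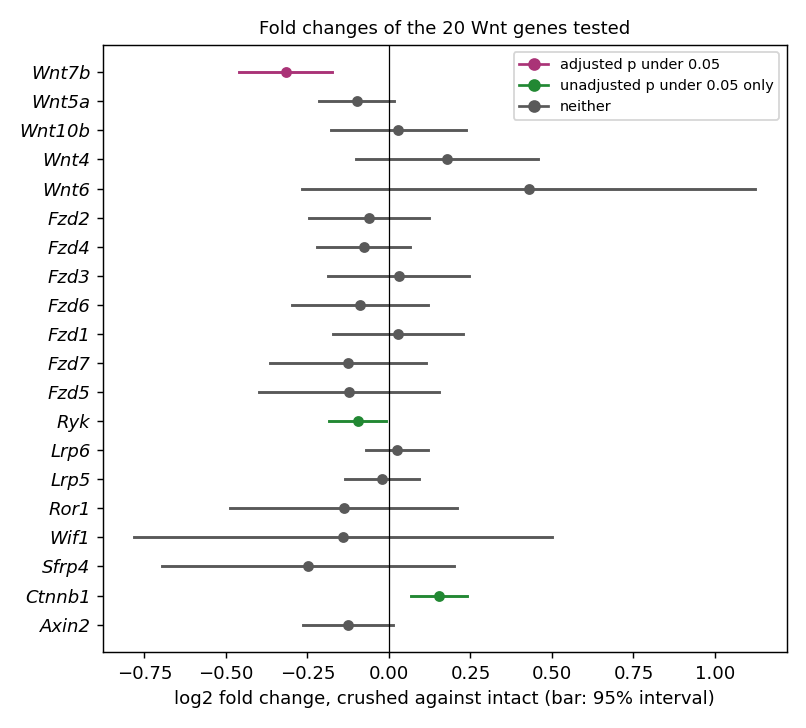
Log2 fold change (x axis, crushed against intact) of each of the 20 members tested, with its 95% interval from edgeR's quasi-likelihood fit to 3 nerves in each group. The interval of Wnt7b lies wholly below 0 (-0.46 to -0.17) and that of Ctnnb1 wholly above (0.07 to 0.24), while Wnt6 has the widest, from -0.27 to 1.12.

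Among the ligands, 5 of 19 were high enough to test, and 3 of them carried nearly all of the signal. Compared by FPKM, which corrects for gene length, Wnt7b was the highest at 12.8, 15.2 and 13.7 in the intact group against 11.0, 11.7 and 11.1 in the crushed group. Wnt5a, the usual ligand of the non-canonical branches, followed at 8.87 to 9.38 FPKM in intact and 8.53 to 8.80 in crushed nerves. Wnt10b, a canonical ligand, came next at 7.16 to 8.85 FPKM in intact and 7.48 to 8.49 in crushed nerves. In each group, the ranges of these 3 ligands did not overlap, although the lowest Wnt5a value and the highest Wnt10b value among the intact nerves almost met. Wnt4 (0.63 to 0.85 FPKM over the 6 nerves) and Wnt6 (0.22 to 0.49 FPKM) were far lower.

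**Figure D2:**
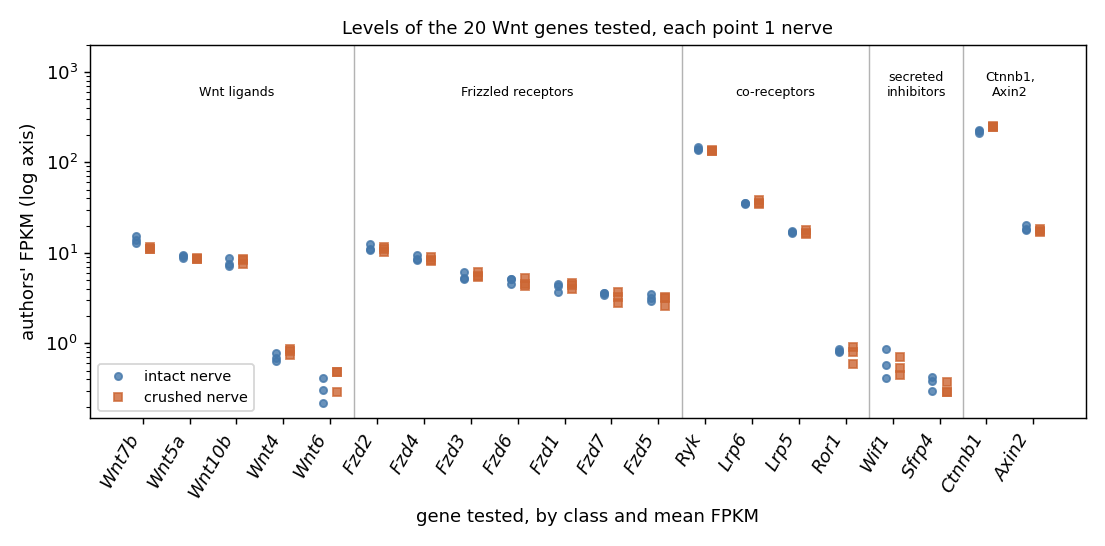
FPKM (y axis, log scale) of the 20 members tested, each point 1 nerve, in the order of their class and mean level. Ctnnb1 and Ryk stand above the other members, with mean FPKM of 235 and 138 over the 6 nerves, and Wnt6, Sfrp4 and Wif1 are lowest.

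Wnt7b was the only member that passed an adjusted p of 0.05. This ligand is known for roles in lung, vascular and bone development and in the growth of dendrites. It lies on chromosome 7 from 126420656 to 126465723 in the deposited table, whose submitters list the Rnor_6.0 build. It was counted 1506, 1851 and 1566 times in the intact group and 1376, 1457 and 1273 times in the crushed group. After normalization the intact nerves had 59.5, 70.2 and 63.2 CPM and the crushed nerves 50.4, 53.7 and 50.8 CPM. Every crushed nerve was thus below every intact nerve (p = 0.1 in a two-sided exact permutation test, the lowest value possible with 3 nerves against 3). The mean of the intact group was 64.3 ± 5.40 CPM (SD, n = 3) and that of the crushed group 51.6 ± 1.78 CPM (SD, n = 3), or 0.803-fold. On the log2 scale this was a fold change of -0.32, with a standard error of 0.0649, a 95% interval of -0.46 to -0.17 and an adjusted p of 0.0260 in edgeR.

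The fall of Wnt7b was modest, and the call was lost when most of the nerves were left out one at a time. Its log2 fold change stayed between -0.36 and -0.25 in all 11 alternatives, but its adjusted p in edgeR rose to 0.0820 without intact nerve 2, 0.0535 without intact nerve 3, 0.124 without crushed nerve 1, 0.0650 without crushed nerve 2 and 0.102 without crushed nerve 3. It was 0.00639 without intact nerve 1, 0.0266 with RLE factors, 0.0255 without the expression filter and 0.0220 with a replicate block. With DESeq2 the adjusted p was 0.00127, and with limma on FPKM values 0.0963. Wnt7b thus passed in 5 of the 11 alternatives. Wnt7b made up 42.1% to 45.7% of the summed ligand FPKM in intact nerves and 37.6% to 38.9% in crushed nerves, without overlap. The sum over all ligands was 30.2 to 33.2 FPKM in intact and 28.6 to 30.1 FPKM in crushed nerves. These ranges almost met, with 30.13 as the highest crushed and 30.22 as the lowest intact value. Wnt7b is the largest part of this sum, so neither the share nor the sum is a result apart from Wnt7b. Whether the other ligands together differed was not tested. In the same crushed nerves, the fibroblast markers Fn1, Col1a1, Pdgfrb and Col3a1 fell, while Pdgfra differed by 0.19 on the log2 scale (adjusted p = 0.166 in edgeR). Of the 6 Schwann cell markers tested, Erbb3, a neuregulin receptor, fell, while Cnp differed by 0.21 (adjusted p = 0.0740 in edgeR), with every crushed nerve above the intact ones, and Pmp22 by 0.03. Of the 4 pericyte and smooth muscle markers tested, Cspg4 fell. Their part in the fall of Wnt7b was not tested.

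The other 4 ligands tested did not pass the test. Wnt5a was counted 1174, 1243 and 1101 times in the intact group and 1168, 1152 and 1095 times in the crushed group, or 46.0 ± 1.38 and 43.0 ± 0.658 CPM (SD, n = 3 each). After normalization the 3 crushed nerves lay just below the 3 intact nerves, and the log2 fold change was -0.10 (95% interval -0.21 to 0.02, adjusted p = 0.390). For Wnt10b it was 0.03 (95% interval -0.18 to 0.24), for Wnt4, a ligand of kidney and reproductive tract development, 0.18 (95% interval -0.10 to 0.46), and the groups overlapped in both. Wnt10b changed direction without intact nerve 1 or crushed nerve 2, with log2 fold changes from -0.02 to 0.12 as single nerves were left out. Wnt6, which had only 12 to 27 counts per nerve, had a log2 fold change of 0.43 (95% interval -0.27 to 1.12), so that a log2 fold change of 1 lay within its interval, and it ran from 0.23 without intact nerve 2 to 0.67 without intact nerve 3.

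The remaining 14 ligands were at or near the floor. Wnt2, Wnt3, Wnt3a, Wnt7a, Wnt8a, Wnt8b, Wnt9b, Wnt11 and Wnt16 had 0 counts in every nerve, and Wnt1 and Wnt2b had 1 count in 1 nerve each. Wnt9a had 1 count in intact nerve 3 and 2 in crushed nerve 2. Wnt10a had 4 counts in crushed nerve 3 and 0 in the others. Wnt5b, a close relative of Wnt5a, had 2 to 5 counts in each nerve. A count of 0 allows a level of up to 0.110 to 0.121 CPM, so low expression of these genes in a few cells was not detectable at this depth.

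Several ligand genes are close neighbours in the genome, and the levels of Wnt10b and Wnt1 differed widely. Wnt10b ends on chromosome 7 at 140454268 and Wnt1 begins 10.7 kb further on, at 140464999, yet Wnt10b had 409 to 513 counts per nerve and Wnt1 at most 1. Wnt6 and Wnt10a, which are 6.41 kb apart on chromosome 9, had 12 to 27 and 0 to 4 counts. Both genes of the other neighbouring pairs, Wnt3a with Wnt9a and Wnt9b with Wnt3 on chromosome 10, had at most 2 counts in any nerve.

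All 7 Frizzled genes tested were expressed in both groups. Fzd2 was the highest by FPKM, at 12.5, 10.9 and 10.6 in the intact group against 11.5, 11.1 and 10.3 in the crushed group. Fzd4, which also serves as the receptor for norrin in retinal vessels, followed at 8.02 to 9.47 FPKM over the 6 nerves, below every value of Fzd2. The other receptors formed a series without clear steps: Fzd3 (5.11 to 6.21 FPKM), Fzd6 (4.29 to 5.29), Fzd1 (3.73 to 4.58), Fzd7 (2.82 to 3.67) and Fzd5 (2.56 to 3.54). Each of these overlapped in range with the next, apart from Fzd1 and Fzd7. Fzd3 and Fzd6 are receptors of the planar cell polarity branch, and Fzd3 is known for guiding axons. Fzd8 and Fzd9 had 0 counts in every nerve.

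The Frizzled genes did not pass the test in either direction, and in each the crushed and intact nerves overlapped. The log2 fold changes lay between -0.13 (Fzd7) and 0.03 (Fzd3), with adjusted p-values from 0.600 to 0.915. Fzd2 was counted 611, 552 and 504 times in the intact group and 598, 574 and 492 times in the crushed group, or 21.8 ± 2.05 and 20.9 ± 1.15 CPM (SD, n = 3 each). The difference of -0.06 on the log2 scale was within the spread between nerves (standard error 0.0837, 95% interval -0.25 to 0.12, adjusted p = 0.772 in edgeR). The 95% intervals of all 7 receptors together spanned -0.40 to 0.25 on the log2 scale, and a change beyond these bounds lay outside the interval of every receptor. The direction changed for Fzd2 without intact nerve 1, for Fzd1 without either nerve numbered 3, and for Fzd3 without intact nerve 1, intact nerve 2 or crushed nerve 3. The summed FPKM of the Frizzled genes was 40.4 to 42.2 in intact and 39.7 to 41.0 in crushed nerves, with overlap.

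Among the co-receptors, Ryk stood far above the others. Ryk encodes an atypical kinase-like receptor that binds Wnts such as Wnt5a and is known for repelling growing axons. It was counted 7128, 6954 and 6710 times in the intact group and 6975, 6831 and 6432 times in the crushed group, or 282, 264 and 271 CPM and 255, 252 and 257 CPM after normalization. The 3 crushed nerves lay below the 3 intact nerves after normalization, but by little. The means were 272 ± 9.14 CPM (SD, n = 3) and 255 ± 2.65 CPM (SD, n = 3). The log2 fold change of -0.10 (standard error 0.0395, 95% interval -0.18 to -0.0085) did not pass after adjustment (adjusted p = 0.264 in edgeR). Over the 11 alternatives it lay between -0.12 and -0.06.

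Ryk made up 71.0% to 73.2% of the summed FPKM of the 5 co-receptors over the 6 nerves. The canonical co-receptors Lrp6 (34.6 to 38.1 FPKM) and Lrp5 (16.1 to 17.8 FPKM) were lower than Ryk, and each stayed within narrow bounds. Lrp6 had a log2 fold change of 0.03 (95% interval -0.07 to 0.12) and Lrp5 of -0.02 (95% interval -0.14 to 0.09), and the sign changed for Lrp6 without crushed nerve 3 and for Lrp5 without intact nerve 1 or crushed nerve 2. For these genes a change of more than 0.14 on the log2 scale in either direction lay outside the interval. Ror1, a receptor of Wnt5a, had 84 to 127 counts per nerve and a log2 fold change of -0.14 (95% interval -0.49 to 0.21), which changed sign without crushed nerve 1. Its relative Ror2 had 0 counts in every nerve.

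Secreted inhibitors were low or at the floor in both groups. Only Wif1 and Sfrp4 had enough counts to test. Wif1, which binds Wnts outside the cell, was counted 49, 34 and 23 times in the intact group and 27, 43 and 30 times in the crushed group, or 1.38 ± 0.511 and 1.26 ± 0.302 CPM (SD, n = 3 each). The groups overlapped, and the log2 fold change, which changed sign without nerve 1 of either group, was -0.14 (standard error 0.290, 95% interval -0.78 to 0.50, adjusted p = 0.858 in edgeR). Sfrp4 was counted 52, 60 and 39 times in the intact group and 53, 41 and 38 times in the crushed group, with a log2 fold change of -0.25 (95% interval -0.70 to 0.20). With so few counts the intervals were wide, and the log2 fold change of Sfrp4 ran from -0.38 without intact nerve 3 to -0.13 without intact nerve 2. Both Dkk1 entries, Dkk2, Dkk4, Sfrp1 and Sfrp5 had 0 counts in every nerve. Dkk3 had 2 counts in intact nerve 2, and Sfrp2 and Frzb had 1 count each in crushed nerve 2. The summed FPKM of the whole class was 0.710 to 1.24 in intact and 0.813 to 1.03 in crushed nerves, against 28.6 to 33.2 for the ligands.

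Ctnnb1, which encodes β-catenin, was the highest member and the only one whose crushed nerves all lay above the intact nerves. It lies on chromosome 8 from 129617812 to 129627372. It was counted 12948, 14464 and 13406 times in the intact group and 16201, 16243 and 14767 times in the crushed group. After normalization the values were 512, 548 and 541 CPM in the intact nerves and 593, 598 and 589 CPM in the crushed nerves. Means of 534 ± 19.3 CPM (SD, n = 3) and 594 ± 4.47 CPM (SD, n = 3) gave a log2 fold change of 0.15 (standard error 0.0387, 95% interval 0.07 to 0.24), or 1.11-fold. This did not pass after adjustment in edgeR (adjusted p = 0.0639), whereas it passed with DESeq2 (adjusted p = 0.0277) and in edgeR without intact nerve 1 (adjusted p = 0.0456). Over all 11 alternatives the log2 fold change stayed between 0.13 and 0.18 and the adjusted p between 0.0277 and 0.251. β-catenin also serves in cell adhesion at cadherin junctions, and its signaling activity is set mainly by protein stability, which counts of RNA do not measure.

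Axin2, a negative regulator that β-catenin itself induces, is widely used as a readout of canonical signaling. It was counted 2090, 1936 and 1773 times in the intact group and 1872, 1987 and 1676 times in the crushed group, or 82.6, 73.4 and 71.6 CPM and 68.5, 73.2 and 66.9 CPM after normalization. Crushed nerve 2 lay among the intact nerves, so the groups overlapped, and intact nerve 1 was the highest of all. The log2 fold change of Axin2 was -0.13, with a standard error of 0.0627, a 95% interval of -0.26 to 0.0135 and an adjusted p of 0.365 in edgeR. It was -0.05 without intact nerve 1, and lay between that and -0.16 (without crushed nerve 2) over the 11 alternatives.

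**Figure D3:**
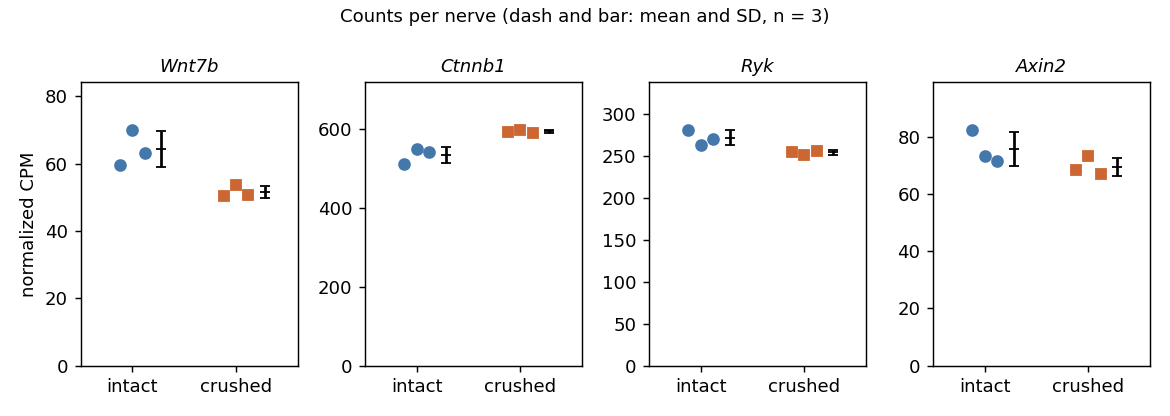
Normalized CPM (y axis, from 0) of Wnt7b, Ctnnb1, Ryk and Axin2 in each of the 3 intact and 3 crushed nerves, with the mean and SD of each group. Wnt7b and Ryk are lower and Ctnnb1 is higher in every crushed nerve, while the Axin2 value of crushed nerve 2 (73.2 CPM) falls between those of the intact nerves.

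To show the regulatory sequence of the 2 intracellular genes and of Ryk, the 250 bases upstream of the start of each gene were taken from RefSeq (GRCr8 assembly, plus strand for all 3, written 5′ to 3′). Whether these starts were used in the nerves was not tested. Capitals mark matches to CTTTGA or CTTTGT, the core letters bound by TCF/LEF factors, searched on both strands. The windows are chr10:94398535-94398784 for Axin2, chr8:129533887-129534136 for Ctnnb1 and chr8:112297931-112298180 for Ryk.
Axin2: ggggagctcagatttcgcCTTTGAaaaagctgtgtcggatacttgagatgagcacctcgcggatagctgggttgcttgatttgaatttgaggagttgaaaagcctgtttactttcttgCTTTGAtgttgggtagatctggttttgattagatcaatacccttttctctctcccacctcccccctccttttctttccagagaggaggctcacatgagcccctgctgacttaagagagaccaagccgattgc
Ctnnb1: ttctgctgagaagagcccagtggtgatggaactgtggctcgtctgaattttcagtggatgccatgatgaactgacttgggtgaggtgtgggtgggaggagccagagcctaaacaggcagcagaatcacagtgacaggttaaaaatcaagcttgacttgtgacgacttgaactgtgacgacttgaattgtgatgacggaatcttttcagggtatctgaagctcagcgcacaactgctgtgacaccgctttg
Ryk: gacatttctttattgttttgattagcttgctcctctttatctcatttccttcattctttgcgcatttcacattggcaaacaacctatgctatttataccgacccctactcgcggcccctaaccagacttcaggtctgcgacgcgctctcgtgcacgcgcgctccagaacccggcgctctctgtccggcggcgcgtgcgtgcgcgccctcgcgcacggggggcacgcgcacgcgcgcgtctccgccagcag

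The Axin2 window held 2 matches to CTTTGA on the plus strand, beginning 232 and 132 bases upstream of the start. The Ctnnb1 and Ryk windows held 0 matches, which says only that these letters are not in these windows. Of the 45 member names, 32 were matched to a promoter, and 7 of the 32 windows (21.9%) held at least 1 match: Axin2, Dkk1, Frzb, Fzd7, Sfrp5, Wnt8a and Wnt8b. Over all 33469 promoters of the same table, 27.5% held one. Of these 7 genes, only Axin2 and Fzd7 had enough counts to test, and neither passed the test. A match of this length is frequent and is a description, not a binding site.

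Other genes of the pathway were taken from 4 lists written by hand with earlier results of these data known. Their counts and medians are therefore a description only. The lists had 125 genes in the table and 97 tested. Of these 97, 0 rose and 1 fell at an adjusted p under 0.05, against 1.47% and 1.65% of all genes, and 0 passed the study's limits. The direction was downward in 60 and upward in 37, and the median log2 fold change was -0.04, against -0.0017 over all genes. With an unadjusted p under 0.05, 2 were higher, against 6.71% of all genes, and 18 were lower, against 9.5%.

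The 8 tested genes of Wnt secretion and of receptor turnover had a median log2 fold change of -0.13, and none passed after adjustment. Porcn, the acyltransferase that attaches the lipid to Wnts, was counted 147, 105 and 109 times in the intact group and 96, 99 and 82 times in the crushed group (log2 fold change -0.44, standard error 0.159, adjusted p = 0.197, with -0.26 without intact nerve 1). Lgr4, a receptor for R-spondins, was counted 218, 256 and 268 times in the intact group and 233, 220 and 181 times in the crushed group (log2 fold change -0.29, adjusted p = 0.240). In both genes the normalized values of the crushed nerves all lay below those of the intact nerves, as in 12.2% of all genes tested. Both were picked for a small p, so this adds no support. Rspo2, Rspo3 and Rspo4, which strengthen Wnt signals through Lgr receptors, had 0 counts in every nerve, and Rspo1 had 1 count in 1 nerve.

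Of the 36 tested genes that pass the signal to β-catenin and its partners, 0 passed after adjustment, with a median log2 fold change of -0.02. With an unadjusted p under 0.05, 0 were higher and 7 lower, against 6.71% and 9.5% of all genes. Bcl9l, a co-activator of β-catenin, had 119, 113 and 109 CPM in intact and 104, 101 and 88.8 CPM in crushed nerves (log2 fold change -0.22, standard error 0.0614, adjusted p = 0.0999 in edgeR and 0.0434 in DESeq2). Dvl3, one of the Dishevelled proteins that act below Frizzled, had 130, 116 and 123 CPM in intact and 106, 114 and 105 CPM in crushed nerves (log2 fold change -0.19, adjusted p = 0.106). Both were lower in every crushed nerve than in any intact nerve, as were 12.2% of all genes tested. They too were picked for a small p.

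The 1 pathway gene that fell was Ppp3ca, among the 31 tested genes of the planar cell polarity and calcium branches. Ppp3ca encodes a catalytic subunit of calcineurin, the calcium-dependent phosphatase that activates NFAT factors. It was counted 3416, 3753 and 3537 times in the intact group and 3114, 3103 and 2893 times in the crushed group, or 140 ± 4.34 and 115 ± 0.757 CPM (SD, n = 3 each). The crushed nerves all lay below the intact nerves, as in 12.2% of all genes tested. The change was -0.29 on the log2 scale (standard error 0.0413, adjusted p = 0.00288 in edgeR), and the gene passed in all 11 alternatives. Ppp3ca too was picked for a small p, so the gap between the groups adds no support. Calcineurin serves many pathways besides Wnt. Prickle1, a core planar polarity gene, was counted 257, 227 and 218 times in the intact group and 194, 190 and 173 times in the crushed group (log2 fold change -0.39, adjusted p = 0.0714). Rac1, a small GTPase of the cytoskeleton, had 154, 168 and 163 CPM in intact and 177, 175 and 172 CPM in crushed nerves (log2 fold change 0.11, adjusted p = 0.220).

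Among 22 tested genes known as targets of β-catenin in other tissues, 0 passed after adjustment in either direction. Their median log2 fold change was -0.09, with 18 lower and 4 higher in direction. With an unadjusted p under 0.05, 1 was higher and 5 were lower, against the same 6.71% and 9.5% of all genes. Gja1, which encodes the gap junction protein connexin 43, had 557, 565 and 543 CPM in intact and 591, 590 and 597 CPM in crushed nerves (log2 fold change 0.09, adjusted p = 0.213). Jun, a subunit of AP-1, had 162, 143 and 133 CPM in intact and 132, 123 and 126 CPM in crushed nerves (log2 fold change -0.21, adjusted p = 0.150, with -0.12 without intact nerve 1). Twist1, a mesenchymal transcription factor, had 75.6, 79.0 and 69.9 CPM in intact and 67.3, 68.2 and 64.7 CPM in crushed nerves (log2 fold change -0.17, adjusted p = 0.160). The list has 33 genes in the table, and those not tested had at most 9 counts in any nerve, among them Lef1 (at most 1), Sp5 (0), Nkd1 (at most 3) and Lgr5 (at most 4). Feedback genes of the pathway that were tested lay above the floor, with 87 to 137 counts per nerve for Tcf7 and 26 to 44 for Nkd2, and in the list of secretion and receptor turnover with 76 to 108 for Notum and 34 to 70 for Rnf43.

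**Figure D4:**
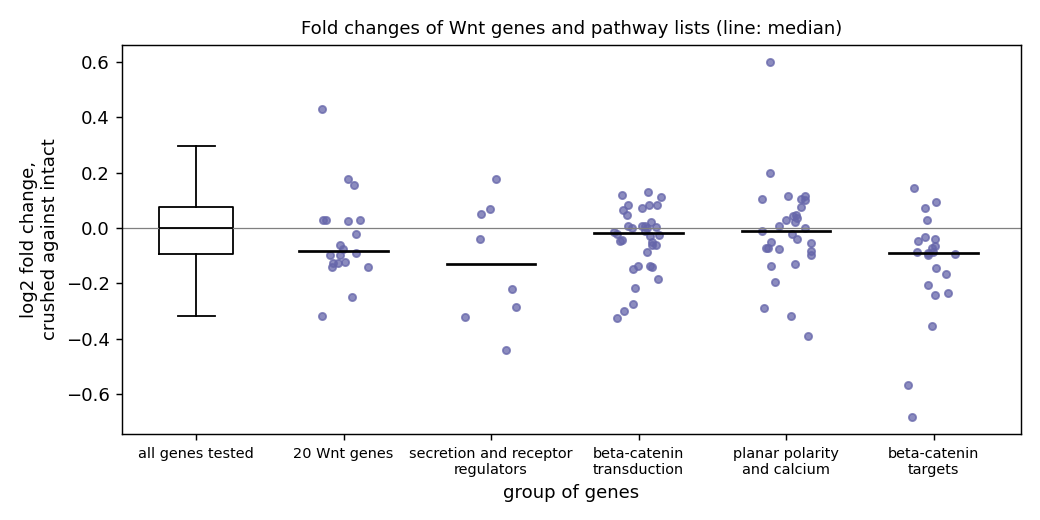
Log2 fold change (y axis, crushed against intact) of all genes tested (box from the lower to the upper quartile, whiskers from the 5th to the 95th percentile), of the 20 members and of the tested genes in 4 pathway lists, each point 1 gene with the list's median as a line. The medians lie between -0.13 and -0.01, and most points fall within the whiskers of all genes.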

How the data were processed

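RNA-seq of 3 crushed and 3 intact sciatic nerves was analysed. The authors deposited 1 table with raw read counts per Ensembl gene and nerve and FPKM values computed from those counts, and per the labels the submitters' processing notes name HISAT2, StringTie 1.3.0 and the build Rnor_6.0, without roles. The counting program and the use of strand are not given in the sources used here. The labels describe a column-based extraction, the methods TRIzol, rRNA removal and RNase R, which digests linear RNA. Sample titles gave the nerve of each column, and 0 value columns were left over.

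The quasi-likelihood F-test of edgeR 4.0.16 (with limma 3.58.1 in R 4.3.3) was run on the counts with TMM factors and filterByExpr, in one fit of all 12393 genes that passed, with Benjamini-Hochberg adjustment over all of them. The 95% intervals come from the test statistic. FPKM served to compare levels between genes, to sum and share them within a class or list in each nerve, and in limma on log2(FPKM + 0.1). The calculation was tested on simulated counts. Replicates differed by more than counting noise (chi-square per degree of freedom 3.27 to 11.8), so no 2 nerves were merged. The alternatives were a replicate block, DESeq2 1.42.0, RLE factors, no filter, limma on FPKM and each nerve left out.

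The members and lists were chosen with earlier results of these data known. Members with an unadjusted p under 0.05, the highest member of each class by FPKM, and in each pathway list up to 2 higher and 2 lower genes with the smallest unadjusted p under 0.05 are given in full, with Axin2, Wnt5a and Sfrp4 added after their values were seen. Depth was between 24844371 and 27139360 counts per nerve.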

Additional observations from a re-analysis of the deposited data

How the results depend on the processing

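At the study's limits 0 members were called in all 11 alternatives. The number lower at an adjusted p under 0.05 was 1, 0 with limma on FPKM, and from 0 to 1 when each nerve was left out; the number higher was 0, 1 with DESeq2, and from 0 to 1 when each nerve was left out. The number lower at an unadjusted p under 0.05 was 2, 1 with DESeq2, 1 with limma on FPKM, and from 1 to 2 when each nerve was left out. The genes counted changed: Ryk was under 0.05 in 4 of the 11 alternatives, and Axin2, not among them in the main fit, in 2. Of the other pathway genes, 1 was lower at an adjusted p under 0.05, and 2 with DESeq2 (Ppp3ca and Bcl9l). The cause of these differences was not tested, and a fit with a nerve left out also has fewer samples.

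As each nerve was left out, the log2 fold change of Fzd2 (-0.06) ran from -0.106 to 0.0239, the last without intact nerve 1, and that of Wif1 (-0.14) from -0.352 to 0.181, with 0.181 without intact nerve 1 and 0.0102 without crushed nerve 1. Of the 20 members, 12 kept their direction in all alternatives and 8 did not. With the replicate number as a block (paired analysis), 0 members were past the study's limits, and 0 were higher and 1 lower at an adjusted p under 0.05, Wnt7b with an adjusted p = 0.0220 and a log2 fold change of -0.31; the block changed no call of a named gene. Deviations of same-numbered nerves correlated across genes between -0.00965 and 0.0709, and those of intact nerve 2 and crushed nerve 1 almost as much as the highest (0.0693). Such values do not show which nerves came from the same rat, so the numbers were not taken as pairs. Depth limits Wif1, Sfrp4 and Wnt6 and all members at the floor.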
